A study of Homo sapiens with 64 samples.

Results

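Nucleotides reach a dividing cell by several routes, and 35 genes that encode those routes were followed here. They comprise equilibrative nucleoside transporters, PRPP (phosphoribosyl pyrophosphate) synthetases, enzymes of purine and pyrimidine synthesis, enzymes that make or clear deoxynucleotides, salvage enzymes and an ecto-nucleotidase, nucleoside diphosphate kinases, and folate enzymes that supply one-carbon units. Members were the rows of the count tables whose Ensembl identifier belongs to 1 of the 35 listed symbols. All 35 were found among the 54127 genes listed, and 34 passed the filter on low counts (at least 10 reads in at least 4 samples).

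De novo synthesis builds the purine ring on PRPP and the pyrimidine ring before PRPP is attached, whereas salvage recycles bases and nucleosides that are taken up or released by RNA and DNA turnover. Ribonucleotide reductase turns ribonucleotides into deoxynucleotides, and thymidylate synthase makes the thymidine nucleotide that only DNA needs. Several of these genes are known to be transcribed mainly in S phase, and thymidylate synthase is the target of 5-fluorouracil, a standard drug in colorectal cancer (CRC).

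The study compared cells of CRC spheroids that had kept a cell label with cells that had diluted it. Cells were stained with CFSE, a dye whose signal falls as cells divide, grown as nonadherent spheroids in serum-free medium with EGF and bFGF, and sorted on day 6 into CFSE-high label-retaining cells (LRCs) and the CFSE-bulk population (non-LRCs). RNA sequencing (RNAseq) covered 48 sorted samples, taken from 6 established CRC cell lines with 4 replicates per population. By colon cancer subtype the lines are CCS1 (HT55, SW948), CCS2 (RKO, SW48) and CCS3 (DLD1, HCT15). The other 16 samples were unsorted DLD1 controls, stained with CFSE or given the DMSO vehicle, on day 1 and on day 5 in the labels (day 6 in the methods of the study), with 4 replicates per group. Each line is a single line grown in culture, so the comparisons within a line describe that line, and the p-values measure the spread between its replicate cultures.

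Gene counts summed to between 12237225 and 20913455 reads in a sample. Levels are given as CPM, counts scaled to a common library size after TMM normalization, computed separately for the sorted samples and the controls. A member was called changed at an adjusted p-value under 0.05 in edgeR's quasi-likelihood test, adjusted over all genes tested. Of 8 epithelial markers, HT55, SW948, DLD1 and HCT15 carried all at a line mean of at least 3.14 CPM, while RKO had CDH1 at 0.97 CPM, KRT19 at 0.987 CPM, VIL1 at 0.361 CPM and KRT20 at 0.136 CPM, and SW48 had KRT20 at 0.28 CPM. The leukocyte gene CD3E was at 0 in all 64 samples and the fibroblast genes COL1A2 and DCN did not exceed 0.234 CPM in any sample, whereas the leukocyte gene PTPRC averaged 14.4 CPM in SW48 and the fibroblast gene COL1A1 8.85 CPM in SW948. Several libraries stood apart from their group, and these are named beside the members they touch. In SW48, replicate 2 was the highest of its group for all 7 deoxynucleotide members in both populations, and in DLD1 and HCT15 replicates 1 and 2 differed from replicates 3 and 4.

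The member NME2, a nucleoside diphosphate kinase, was listed at 0 reads in all 64 samples. Its exons share 603 bases with the readthrough gene NME1-NME2 on the same strand (GRCh37), which is 24.2% of its exon bases. No level of NME2 is therefore given, and NME1 shares 638 exon bases with the same readthrough gene. The strand setting of the counting is not given in the sources used here. Counting set aside 1.52% to 2.21% of reads as ambiguous between genes. For bases shared with a gene on the opposite strand, it is not known whether reads were set aside or counted for a member. This touches most of all DCTPP1, with 41.2% of its exon bases shared with ZNF771, and TYMS, with 39.9% shared with ENOSF1. For SLC29A2 the overlap was 10.3% with the noncoding RNA B4GAT1-DT.

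Every member measured differed in level between the 6 lines. In non-LRCs 34 of 34 members passed the test of a difference between lines, as did 98.3% of all genes tested, so this count is close to the background. The largest ratio between line means was that of NT5E, the CD73 ecto-5'-nucleotidase that turns extracellular AMP into adenosine, with 18.1 ± 1.66 CPM in RKO and 1230 ± 177 CPM in SW48 (mean ± SD, n = 4), a 68.1-fold range. NT5E was singled out after its values were seen, as was TYMS, thymidylate synthase, which had the next largest ratio, from 15.8 ± 2.82 CPM in HT55 to 134 ± 7.28 CPM in DLD1. At the other end UMPS, which completes UMP synthesis, had line means between 31.6 CPM in HCT15 and 49.3 CPM in SW948.

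**Figure D1:**
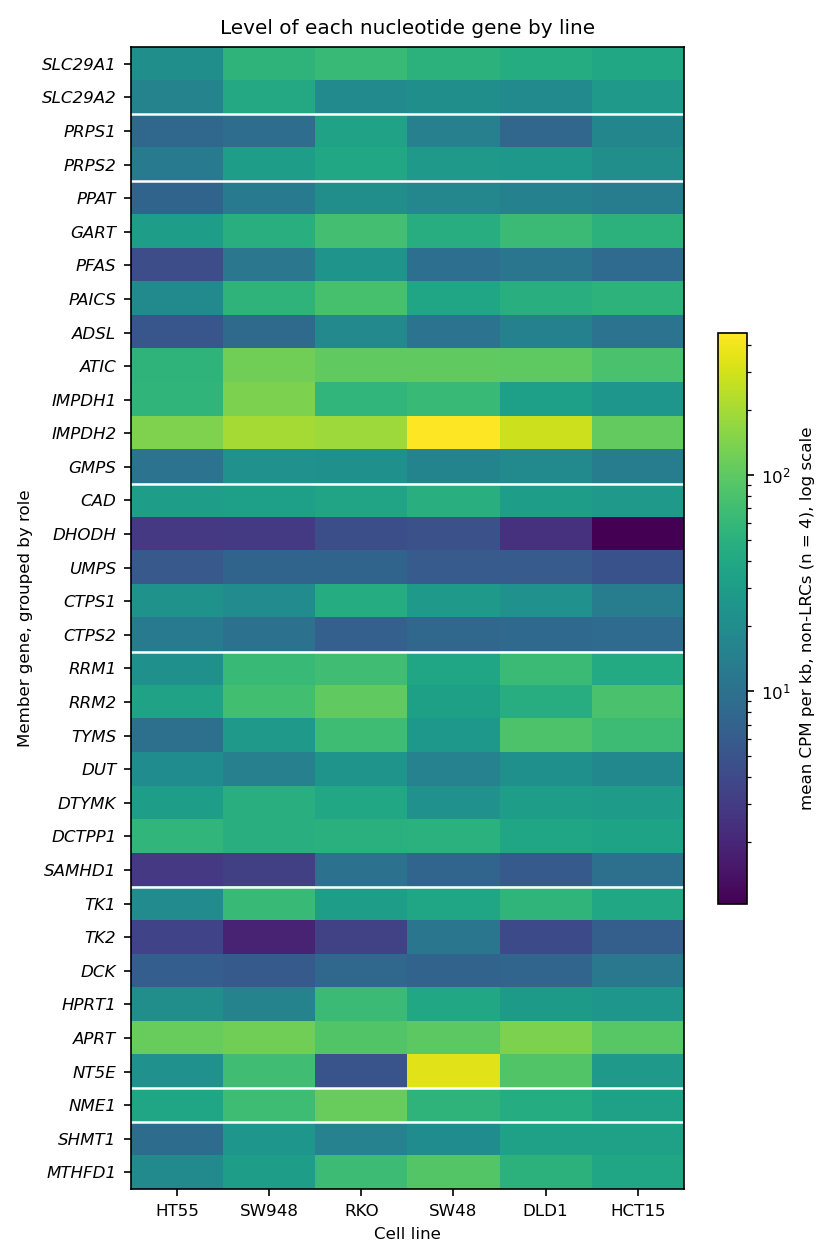
Mean level of 34 members in the non-LRCs of each line (n = 4 per line), in CPM per kilobase of the canonical transcript on a log color scale, with members grouped by role. IMPDH2 is the brightest row in SW48, NT5E ranges from the dark end in RKO to the bright end in SW48, and DHODH in HCT15 is the darkest cell.

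Paired isoenzymes were compared per length of transcript, as a description without a test. In the non-LRCs of all 6 lines SLC29A1, the ENT1 nucleoside transporter, was higher per kilobase than SLC29A2, the ENT2 transporter, by a ratio between 1.32 in SW948 and 3.26 in RKO. IMPDH2, the main isoform of the enzyme that commits IMP to guanine nucleotides, exceeded IMPDH1 in every line, with a ratio of IMPDH1 to IMPDH2 of 0.69 in SW948 and 0.111 in DLD1. CTPS1, 1 of the 2 CTP synthetases, exceeded CTPS2 by 1.56 times in HCT15 and 6.6 times in RKO. Cytosolic TK1 exceeded mitochondrial TK2 by 3.41 times in SW48 and 33.4 times in SW948. The SW48 mean of TK1 includes replicate 2 at 110 CPM, against 30.7 to 44.1 CPM in the others. That replicate was also the highest of its group for RRM1 and RRM2, compared below. PRPS1 and PRPS2, both PRPP synthetases, kept the same order in the non-LRCs of all 6 lines. Their PRPS1 to PRPS2 ratios lay between 0.289 in DLD1 and 0.89 in RKO. For ribonucleotide reductase the order was not the same in all lines, since the large subunit RRM1 was above the small subunit RRM2 in DLD1 (ratio 1.43) and SW48 (1.11) and below it in the other 4 lines. The orders given for DLD1 are those of its sorted non-LRCs, and the unsorted DLD1 controls did not keep all of them. Per kilobase, PRPS1 was above PRPS2 in the CFSE controls (32.8 against 23.8 on day 1, 37.2 against 33.9 on day 5). With DMSO it was below PRPS2 (25.7 against 26.2 on day 1, 22.3 against 25.4 on day 5). SLC29A1 was below SLC29A2 in DMSO day 1 controls (40.7 against 49.7) and above it in the other control groups. In the unsorted DLD1 controls, before division by length, RRM1 ranged from 164 to 389 CPM and RRM2 from 335 to 840 CPM.

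In a fit across the 6 lines, most nucleotide members were lower in LRCs. The units of this fit are the 48 sorted samples, not the 6 lines. Its p-values therefore do not measure how alike the lines were. Of 34 members tested, 23 fell and 0 rose, against 10.7% of all 16603 genes tested that fell and 12.2% that rose. The median log2 fold change of members was -0.2, against 0.01 for all genes tested, and 32 of 34 values lay below 0. By line, 10 members had a log2 fold change below 0 in all 6 lines and 12 in 5 of them. Of the 10, APRT in HT55 and NME1 in SW48 had values that round to 0. The share of all genes with so many lines below 0 is not given. Changes were small, and none of the 23 reached a log2 fold change of 0.5 in size. Leaving out RKO lowered the count to 15, all of them lower in LRCs. Here and below, counts from fits that left out a line or a replicate number come without the share of all genes in those fits. Such counts show only how far a result moved. In these bulk samples fewer cells of a type and less RNA per cell cannot be told apart.

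**Figure D2:**
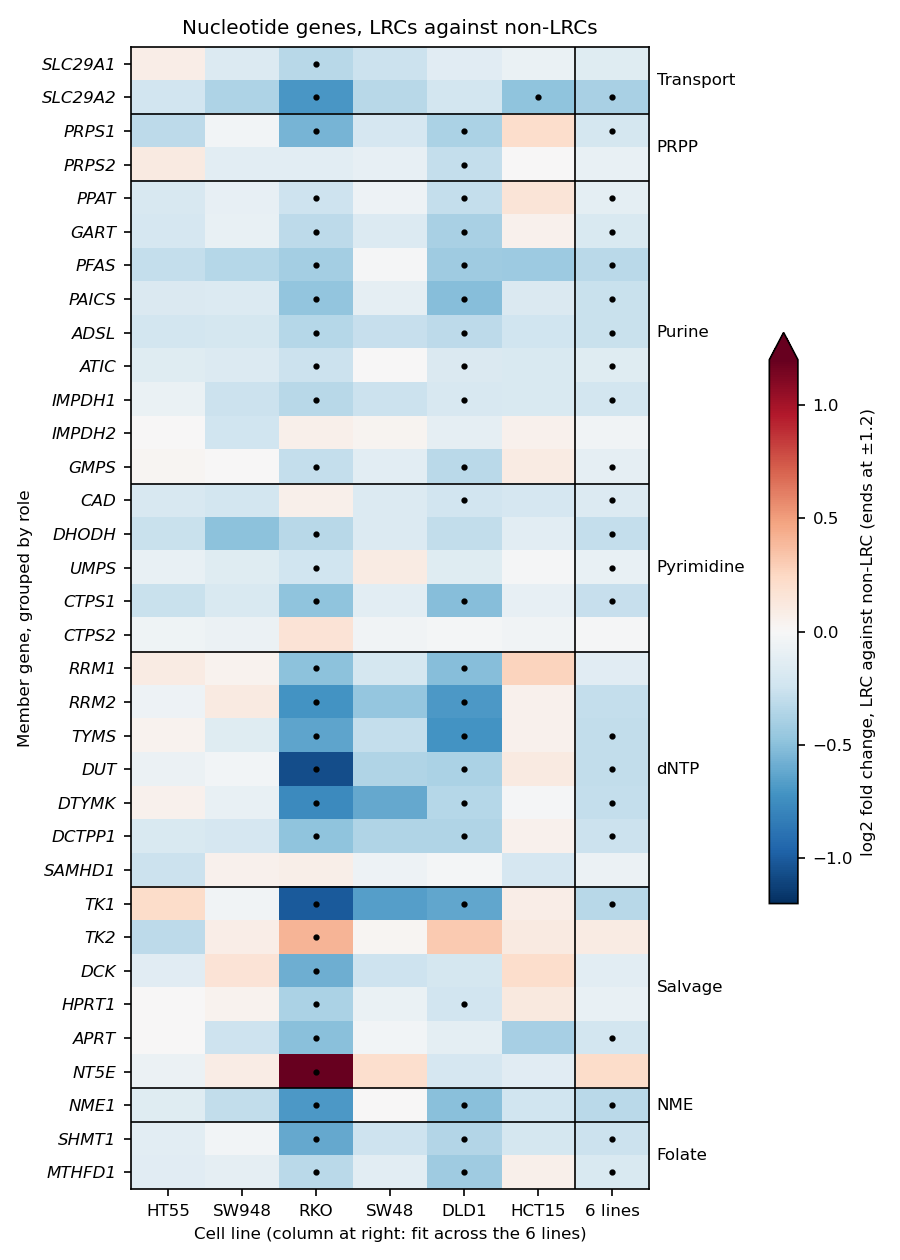
Log2 fold change of LRCs against non-LRCs for 34 members, in each line and in the fit across the 6 lines. Blue is lower in LRCs, a dot marks an adjusted p-value under 0.05, and NT5E in RKO (1.67) lies beyond the end of the color scale. Dots fill most of the RKO and DLD1 columns and are absent from HT55, SW948 and SW48.

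Of the 2 transporters, SLC29A2 (chromosome 11, 66129992 to 66139685, minus strand, GRCh37) fell by 0.39 on the log2 scale (SE 0.05, adjusted p = 6.42e-07, edgeR). It was lower in the LRCs of all 24 same-numbered pairs. In RKO and SW948 same-numbered samples did not deviate together, so pairs there, here and below, are matches by number only. In RKO the level of SLC29A2 was 48, 43.5, 47.5 and 47.4 CPM in non-LRCs and 30.2, 28, 29 and 29.2 CPM in LRCs. In HCT15 the values were 60.3, 65.1, 75.5 and 64.5 CPM in non-LRCs and 50.3, 41.3, 50 and 46.5 CPM in LRCs. The populations did not overlap in RKO, DLD1 and HCT15 and overlapped in HT55, SW948 and SW48. SW948 gave the widest spread, with 107, 94.4, 93.8 and 109 CPM in non-LRCs against 59.8, 70, 76.6 and 104 CPM in LRCs. SLC29A1 had a log2 fold change of -0.15 (SE 0.06, adjusted p = 0.0587), did not pass, and was lower in 20 of 24 pairs. In HT55 SLC29A1 followed the replicate number more than the population, with 71.3 CPM in non-LRCs and 68.4 CPM in LRCs of replicate 2 against 31.5 to 47.7 CPM in the other 6 samples.

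**Figure D3:**
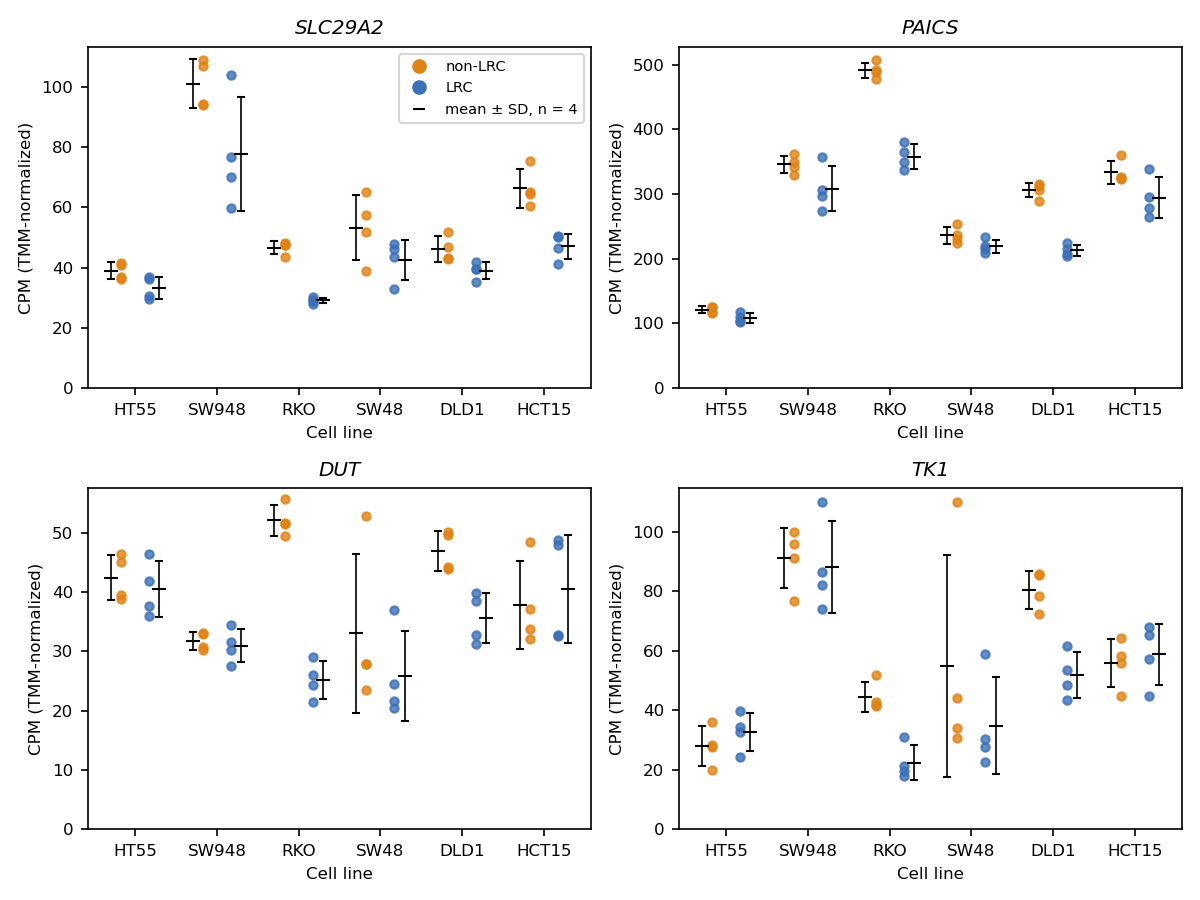
CPM in every sorted sample for SLC29A2, PAICS, DUT and TK1, with non-LRCs in orange and LRCs in blue and the mean ± SD (n = 4) in black. RKO LRCs lie below RKO non-LRCs in all 4 panels, and in SW48 1 sample of each population lies far above its group for DUT and TK1.

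Most of the purine path was lower. Of 9 members of the de novo purine path, 8 fell and IMPDH2 did not pass, with a log2 fold change of -0.04 (adjusted p = 0.689). PAICS (chromosome 4, 57301907 to 57330744, plus strand), which adds the carboxyl and aspartate groups to the growing ring, fell by 0.27 (SE 0.04, adjusted p = 6.42e-07) and was lower in 22 of 24 pairs. Its RKO values were 478, 489, 491 and 507 CPM in non-LRCs against 337, 381, 349 and 365 CPM in LRCs, and its DLD1 values 307, 290, 315 and 312 CPM against 204, 208, 215 and 224 CPM. Neither pair of groups overlapped. ADSL, adenylosuccinate lyase, fell by 0.27 (SE 0.04, adjusted p = 8.53e-07) and was lower in 23 of 24 pairs, with per-line log2 fold changes between -0.34 in RKO and -0.21 in SW948. In HCT15, ADSL was 46.8, 49, 46.6 and 43.1 CPM in non-LRCs and 38.4, 38.4, 41.1 and 38.4 CPM in LRCs, groups that did not overlap. PFAS, which carries out the fourth step of the path, fell by 0.32 (SE 0.05, adjusted p = 7.26e-06). The other members called were PPAT, the committed step, GART, ATIC, IMPDH1 and GMPS, with log2 fold changes between -0.22 and -0.11. Of the PRPP synthetases, PRPS1 fell by 0.21 (SE 0.05, adjusted p = 0.00319) and PRPS2 had a log2 fold change of -0.09 (adjusted p = 0.153).

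Of 5 pyrimidine members, 4 fell. CTPS1, which makes CTP from UTP, fell by 0.28 (SE 0.04, adjusted p = 5.45e-06), and DHODH, the mitochondrial dihydroorotate dehydrogenase, fell by 0.29 (SE 0.05, adjusted p = 1.16e-05). CTPS1 was lower in 23 of 24 pairs. Its HT55 values were 69.9, 61.2, 70 and 70.3 CPM in non-LRCs and 55.3, 54.2, 56.6 and 60.4 CPM in LRCs, which did not overlap although no gene was called in that line. DHODH was a low gene, with non-LRC line means of 4.86 to 22.1 CPM, and in SW948 it was 14.5, 14.3, 12.2 and 13.7 CPM in non-LRCs against 9.33, 9.42, 8.73 and 11.2 CPM in LRCs. CAD, whose product starts the pyrimidine path, and UMPS fell by 0.16 and 0.09. CTPS2 had a log2 fold change of -0.01 (adjusted p = 0.828).

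Among 7 deoxynucleotide members, 4 fell, but 1 without RKO and 3 without DLD1. DCTPP1, a dCTP pyrophosphatase, fell by 0.26 (SE 0.05, adjusted p = 5.44e-05), DTYMK, thymidylate kinase, by 0.29 (SE 0.07, adjusted p = 0.00338), DUT, the dUTPase that keeps uracil out of DNA, by 0.3 (SE 0.09, adjusted p = 0.00904) and TYMS by 0.3 (SE 0.11, adjusted p = 0.042). RRM2 had a log2 fold change of the same size, -0.29 (SE 0.12, adjusted p = 0.069), and did not pass. RRM1 (-0.14, adjusted p = 0.232) and the dNTP triphosphohydrolase SAMHD1 (-0.07, adjusted p = 0.431) also did not pass.

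Salvage members were mixed, and the count of 2 was 1 without RKO or without DLD1. Of 6, TK1, cytosolic thymidine kinase, fell by 0.33 (SE 0.12, adjusted p = 0.0337) and APRT, which salvages adenine, fell by 0.22 (SE 0.05, adjusted p = 0.000868). Values for DCK, deoxycytidine kinase (-0.13), HPRT1, which salvages hypoxanthine and guanine (-0.09), TK2 (0.1) and NT5E (0.22) did not pass the test. NME1 fell by 0.32 (SE 0.06, adjusted p = 4.55e-05). Both folate members fell, SHMT1, cytosolic serine hydroxymethyltransferase, by 0.26 (SE 0.05, adjusted p = 7.93e-05) and MTHFD1, the cytosolic tetrahydrofolate enzyme, by 0.18 (SE 0.04, adjusted p = 0.00133).

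Promoters were searched for words that are often discussed for growth and S-phase genes, namely the E-box CACGTG, the E2F words TTTCGCGC and TTTGGCGC, and CCAAT, each on both strands within the 250 bases before a start site. RefSeq windows on GRCh38.p14 were matched for 32 of 35 members, and none was matched for SLC29A2. CACGTG stood in a window of 7 members (21.9%), against 7.73% of all 27305 genes with a window, TTTGGCGC in 2 (6.25%, against 0.681%), TTTCGCGC in 0 (against 0.542%) and CCAAT in 12 (37.5%, against 37%). Only the 2 E2F words named were searched, and other E2F words in a window are neither counted nor marked. Genes with several start sites had several windows. These words do not overlap each other, and a match is a description of letters, not of a bound factor. Where a gene had several windows (4 for DUT, 2 for RRM2 and 2 for TK1), the one with the most words was chosen for print. The upstream windows of 5 members described in this report are printed to show where the words lie, with the words in capitals and all sequences 5′ to 3′ on the strand of the gene. They are DHODH (chr16:72008494-72008743, plus strand) and MTHFD1 (chr14:64388103-64388352, plus strand) with 1 E-box and 1 CCAAT each, DUT (chr15:48331947-48332196, plus strand) with 1 E2F word, RRM2 (chr2:10122489-10122738, plus strand) with 3 CCAAT words, and TK1 (chr17:78187053-78187302, minus strand) with 2 CCAAT words read on the other strand.
DHODH: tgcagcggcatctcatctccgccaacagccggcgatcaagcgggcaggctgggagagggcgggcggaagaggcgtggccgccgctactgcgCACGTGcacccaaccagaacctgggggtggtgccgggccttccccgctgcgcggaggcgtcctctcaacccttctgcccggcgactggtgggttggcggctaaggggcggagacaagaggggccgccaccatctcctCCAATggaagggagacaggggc
MTHFD1: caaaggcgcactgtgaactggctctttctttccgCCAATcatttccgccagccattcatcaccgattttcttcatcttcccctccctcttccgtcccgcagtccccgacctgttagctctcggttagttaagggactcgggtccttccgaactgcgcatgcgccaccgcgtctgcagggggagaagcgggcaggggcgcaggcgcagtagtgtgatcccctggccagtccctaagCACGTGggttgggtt
DUT: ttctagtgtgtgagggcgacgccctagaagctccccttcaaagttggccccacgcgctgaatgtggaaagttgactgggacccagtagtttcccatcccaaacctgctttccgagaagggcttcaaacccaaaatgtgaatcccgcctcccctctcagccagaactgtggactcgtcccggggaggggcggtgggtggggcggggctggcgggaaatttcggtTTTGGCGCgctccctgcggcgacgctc
RRM2: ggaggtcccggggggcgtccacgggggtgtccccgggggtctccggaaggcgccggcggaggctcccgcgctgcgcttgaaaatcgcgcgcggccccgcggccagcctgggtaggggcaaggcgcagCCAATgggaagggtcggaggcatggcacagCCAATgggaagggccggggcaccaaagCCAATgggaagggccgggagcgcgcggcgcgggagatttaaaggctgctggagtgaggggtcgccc
TK1: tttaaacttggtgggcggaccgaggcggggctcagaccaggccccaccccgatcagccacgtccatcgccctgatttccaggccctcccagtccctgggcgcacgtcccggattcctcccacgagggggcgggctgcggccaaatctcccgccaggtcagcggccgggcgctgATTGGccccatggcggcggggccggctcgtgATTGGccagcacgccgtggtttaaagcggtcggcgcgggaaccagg

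The members did not behave alike in the 6 lines. A test of whether the LRC effect differed between lines called 10 of 34 members, against 14.3% of all genes tested. They were PRPS1 (adjusted p = 0.00155), PAICS (0.00443), DUT (0.00571), TK2 (0.0207), DTYMK (0.0241), GMPS (0.0253), NME1 (0.026), DCK (0.0301), MTHFD1 (0.045) and APRT (0.0487). PRPS1 had log2 fold changes from -0.56 in RKO to 0.21 in HCT15, and DUT from -1.06 in RKO to 0.11 in HCT15. SLC29A2 did not pass this test (adjusted p = 0.275). Same-numbered samples deviated together in 4 of the 6 lines, and with the replicate number as a block 25 members passed, against 33.6% of all genes, among them SLC29A2 (adjusted p = 0.0355), RRM2 (1.04e-05) and TK1 (8.08e-08). The count of 10 also rested on the replicates used, since it was 0 without replicate 1, 14 without replicate 2, and 1 without replicate 3 or without replicate 4.

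RKO carried the largest changes. In its LRCs 27 members fell and 2 rose, against 21% of all genes tested in RKO that fell and 20.4% that rose. DUT was 51.7, 51.5, 55.7 and 49.5 CPM in non-LRCs and 21.4, 26, 29 and 24.4 CPM in LRCs, a drop of 1.06 on the log2 scale in that line (SE 0.09, adjusted p = 4.99e-07). TK1 was 41.6, 41.3, 51.7 and 42.8 CPM against 17.7, 19.5, 30.9 and 21.1 CPM, and fell by 1.01 (SE 0.14, adjusted p = 3.97e-05). The values of both genes were apart in all 8 samples. The 2 members that rose were TK2, by a log2 fold change of 0.41 (SE 0.09, adjusted p = 0.00229), and NT5E, by 1.67 (SE 0.08, adjusted p = 7.74e-10). NT5E was 17.9, 20.1, 16.1 and 18.3 CPM in non-LRCs and 60.2, 58.8, 57 and 57.4 CPM in LRCs of RKO. In the other 5 lines the log2 fold change of NT5E lay between -0.2 and 0.2, and it was not called in any of them. Members of RKO that did not pass were PRPS2, IMPDH2, CAD, CTPS2 and SAMHD1. The summed level of the 8 epithelial markers was 210 to 245 CPM in RKO non-LRCs and 266 to 318 CPM in RKO LRCs, and its part in the members' values was not tested.

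In DLD1, 23 members fell and 0 rose, against 7.89% of all genes tested there that fell and 6.67% that rose. TYMS was 142, 125, 133 and 136 CPM in non-LRCs and 98.9, 77.6, 71.1 and 73.3 CPM in LRCs (log2 fold change -0.72, SE 0.1, adjusted p = 0.00157). RRM2 was 166, 144, 134 and 158 CPM against 120, 99.9, 72.3 and 75.8 CPM, and fell by 0.69 (SE 0.14, adjusted p = 0.011). All 4 LRC samples of DLD1 were below all 4 non-LRC samples for both genes. SLC29A2, with log2 fold change -0.22, had an adjusted p of 0.0785 in DLD1 and did not pass. Members called in DLD1 and called lower in RKO numbered 21, which is 91.3% of the DLD1 calls and 77.8% of the RKO calls. Of all genes tested in both lines, 632 were lower in both, which is 60.5% of those lower in DLD1 and 24.2% of those lower in RKO. With the replicate number as a block, 30 members fell and TK2 rose in DLD1, where 16.6% of all genes fell and 17.1% rose. Without replicate 1 or without replicate 3 the count in DLD1 was 13.

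The other lines gave few calls. In HCT15 SLC29A2 alone was called, and it fell (log2 fold change -0.48, SE 0.1, adjusted p = 0.0469), against 0.25% of genes that fell and 0.728% that rose in that line. That call was lost when any 1 of the 4 replicates was left out. Same-numbered LRC and non-LRC samples of HCT15 deviated together. With the replicate as a block 7 members fell and 3 rose, where 10% and 11.3% of all genes did, so the count that rose is close to the background. The 3 that rose in this fit were PRPS1, RRM1 and DCK, with log2 fold changes of 0.21 to 0.25. Members that fell included PFAS (-0.44, adjusted p = 0.000511) and APRT (-0.4, adjusted p = 0.000337). NT5E showed the replicate difference most plainly, with 144 and 183 CPM in the HCT15 non-LRCs of replicates 1 and 2 against 32.2 and 30.3 CPM in replicates 3 and 4.

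In SW48 0 members were called, against 0.0758% of genes that fell and 0.72% that rose, and 6 of 34 members had an unadjusted p under 0.05, as did 13.1% of all genes. Replicate 2 of SW48 was high in both populations for the S-phase members. TK1 was 33.9, 110, 30.7 and 44.1 CPM in non-LRCs and 22.4, 58.7, 27.6 and 30.3 CPM in LRCs of replicates 1 to 4, and RRM2 was 226 CPM in non-LRC replicate 2 against 48.3 to 81.8 CPM in the others. Within each pair TK1 was lower in LRCs. With the replicate as a block 8 members fell in SW48, among them DTYMK (-0.58, adjusted p = 0.00622) and TK1 (-0.57, adjusted p = 0.00894), against 4.33% of all genes. Without replicate 2 and without the block, 1 member was called. In HT55 and in SW948 0 members were called, and 0% of all genes fell and 0% rose in each of the 2 lines by edgeR. DESeq2 called 0 members in HT55, 0 in SW48 and 1 in SW948. Members with an unadjusted p under 0.05 numbered 6 of 34 in HT55 and 11 of 34 in SW948, where 7.51% and 17.2% of all genes had one. Medians of the members were -0.13 in HT55 and -0.12 in SW948, next to -0.36 in RKO, -0.3 in DLD1, -0.14 in SW48 and -0.01 in HCT15.

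Cell cycle genes outside the members were set beside these values. A list of S-phase genes had 13 of 21 members lower across the lines, with a median log2 fold change of -0.23, among them MCM3 (-0.24, adjusted p = 0.000582) and POLA1 (-0.23, adjusted p = 0.00101). Without RKO 3 of 21 were lower and without DLD1 7 of 21. A G2 and mitosis list had 3 of 16 lower and a median of -0.2, with 0 of 16 called without RKO or without DLD1. Its direction was not the same in all lines. In HCT15 its values ran from 0.07 (CENPE) to 0.66 (UBE2C), with no gene of the list called. They ran from -0.18 to 0.16 in HT55 and from -0.29 to 0.27 in SW948. In DLD1 they ran from -0.76 to -0.29 and in SW48 from -1.01 to -0.32. By line the S-phase medians were 0.03 in HT55, -0.05 in SW948, -0.68 in RKO, -0.27 in SW48, -0.49 in DLD1 and 0.08 in HCT15. The deoxynucleotide medians were -0.06, -0.03, -0.63, -0.36, -0.38 and 0.05 in the same order of lines. The purine medians were -0.17, -0.16, -0.31, -0.11, -0.31 and -0.17. The purine group had a negative median in all 6 lines, also in HT55 and HCT15 where the S-phase median was above 0, but no purine member was called in those 2 lines and in HCT15 4 of 9 had values above 0 (PPAT, GART, IMPDH2 and GMPS). The pyrimidine group likewise had negative medians in all 6 lines, from -0.24 in RKO to -0.1 in HCT15. The part of the cell cycle genes in the members' values was not tested. The regulators MYC (-0.24, adjusted p = 0.008) and E2F1 (-0.26, adjusted p = 0.0232) fell across lines, and E2F2, E2F3 and MYCN did not pass.

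**Figure D4:**
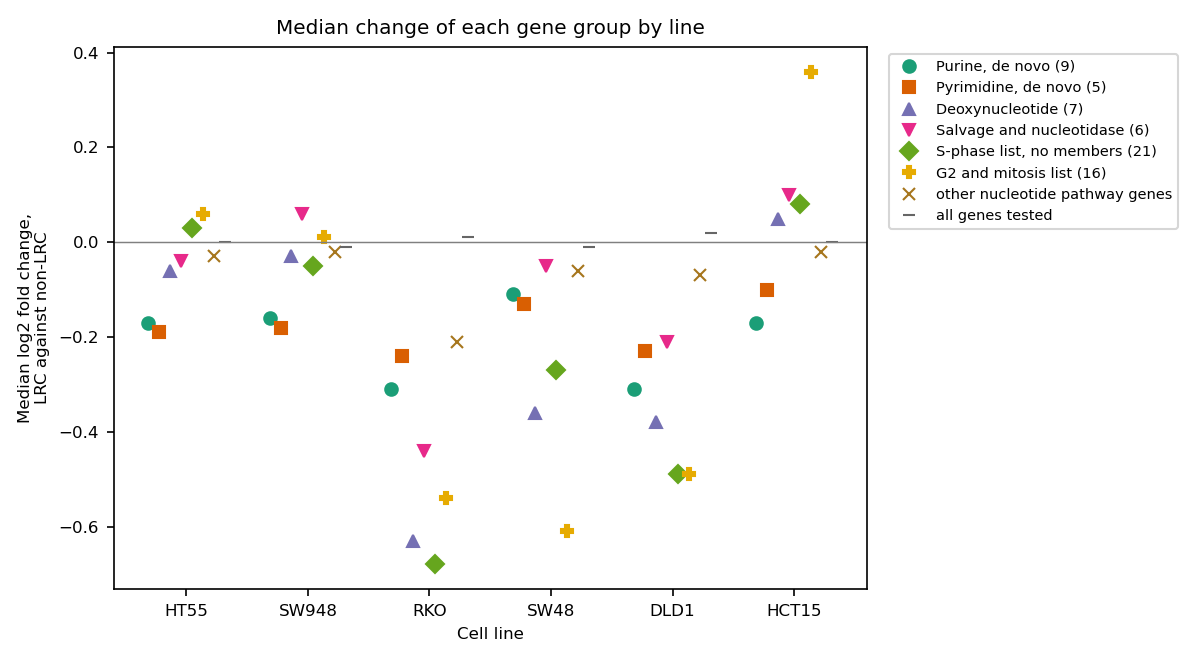
Median log2 fold change of LRCs against non-LRCs in each line for 4 groups of members, the S-phase list, the G2 and mitosis list, the other nucleotide pathway genes and all genes tested. Purine and pyrimidine medians lie below 0 in all 6 lines, while deoxynucleotide medians lie near the S-phase medians, far below 0 in RKO and above 0 in HCT15.

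Other genes of the nucleotide pathways, 67 in all, were listed beside the members. Of 59 tested across the lines, 14 fell and 3 rose, with a median log2 fold change of -0.06. Those that fell included UCK2, uridine-cytidine kinase (-0.25, SE 0.03, adjusted p = 2.89e-07), FPGS, which adds glutamates to folates (-0.21, adjusted p = 1e-05), and the reduced folate carrier SLC19A1 (-0.31, adjusted p = 3.19e-05). The 3 that rose were the concentrative transporter SLC28A3 (log2 fold change 1.39, SE 0.28, adjusted p = 0.000219), the p53-inducible ribonucleotide reductase subunit RRM2B (0.4, SE 0.09, adjusted p = 0.00141) and uridine phosphorylase UPP1 (0.46, SE 0.15, adjusted p = 0.0266). These rested on some of the lines. SLC28A3 had a group mean of at most 0.501 CPM outside SW948 and was too low to be tested within those 5 lines. In SW948 it was 0.703 ± 0.201 CPM in non-LRCs and 1.57 ± 0.541 CPM in LRCs (mean ± SD, n = 4), and was not called (edgeR adjusted p = 0.159). RRM2B was called in RKO alone (1.56, adjusted p = 1.09e-09). UPP1 rose in DLD1 (0.7, adjusted p = 0.00522) and HCT15 (1.83, adjusted p = 0.0482) and fell in RKO (-0.63, adjusted p = 0.000119). A list of 17 genes that act on 5-fluorouracil, which shares genes with the members and with the list above, had 6 lower and 1 higher of 15 tested, the higher one being UPP1.

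The DLD1 controls ask how the same genes moved with time in culture and with the dye. Before the results, 1 library needs mention. The library labelled DMSO day 1 replicate 4 correlated with the other DMSO day 1 libraries at r of 0.809 to 0.856 and with the DMSO day 5 libraries at 0.93 to 0.979, over the 2000 most variable genes. It went against its label, and the count of members in each comparison of the controls is given with it and without it. The control comparisons share groups of samples, so their counts are not independent of each other.

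In the DMSO controls 4 members fell from day 1 to day 5 and 0 rose, against 13.1% of genes that fell and 12.4% that rose. The count that fell is thus close to the background. The 4 were SLC29A2 (log2 fold change -0.92, SE 0.25, adjusted p = 0.017), CTPS1 (-0.92, SE 0.21, adjusted p = 0.009), PFAS (-0.66, SE 0.18, adjusted p = 0.0199) and RRM2 (-0.54, SE 0.19, adjusted p = 0.0497). CTPS1 was 116, 116, 112 and 57.2 CPM on day 1 and 38.5, 64.3, 54.1 and 54.6 CPM on day 5. SLC29A2 was 142, 141, 130 and 74.5 CPM on day 1 and 52.3, 53.9, 66.4 and 84.7 CPM on day 5. In each case the last day 1 value is the library that went against its label, and it lay among the day 5 values. Without it 15 members fell and 0 rose, against 22.9% and 19.2% of genes, and the log2 fold changes were -1.19 for CTPS1 (SE 0.17, adjusted p = 6.78e-05, edgeR) and -1.17 for SLC29A2 (SE 0.24, adjusted p = 0.0011). TYMS (-0.63, adjusted p = 0.00177), DUT (-0.62, adjusted p = 0.0136) and TK1 (-0.55, adjusted p = 0.00921) were among those added. The S-phase list had 16 of 21 lower with this library and 20 of 21 without it.

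In the CFSE controls most of the calls were higher on the later day. From day 1 to day 5, 17 members rose and 1 fell, against 20.2% of genes that rose and 19.1% that fell. All 6 salvage members rose, as did 5 of 7 deoxynucleotide members and both folate members, with or without the library that went against its label. Of the 4 members called lower in DMSO, SLC29A2 (-0.6, adjusted p = 0.0629), PFAS (-0.36, adjusted p = 0.129) and CTPS1 (-0.27, adjusted p = 0.301) had values below 0 in CFSE too without passing, and RRM2 rose (0.58, adjusted p = 0.0242). Without that library SLC29A2 (-0.63, adjusted p = 0.0304) and PFAS (-0.38, adjusted p = 0.0452) passed as lower in CFSE. NT5E rose by a log2 fold change of 1.83 (SE 0.27, adjusted p = 0.000218), SHMT1 by 0.83 (SE 0.15, adjusted p = 0.000716) and APRT by 0.7 (SE 0.14, adjusted p = 0.00173). SHMT1 was 61.3, 67.7, 103 and 106 CPM on day 1 and 151, 150, 146 and 151 CPM on day 5. DHODH was the member that fell (-0.65, SE 0.19, adjusted p = 0.0119), from 9.31, 9.27, 8.55 and 8.85 CPM to 6.25, 4.97, 6.72 and 5.05 CPM. Neither gene had overlapping days. Replicates 1 and 2 differed from replicates 3 and 4 here too, as SLC29A2 shows with 63 and 57 CPM against 114 and 109 CPM on day 1. Without replicate 1 the count was 5 and without replicate 2 it was 4. Without the DMSO library that went against its label, 17 rose and 3 fell, against 21.5% and 22.2% of genes.

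**Figure D5:**
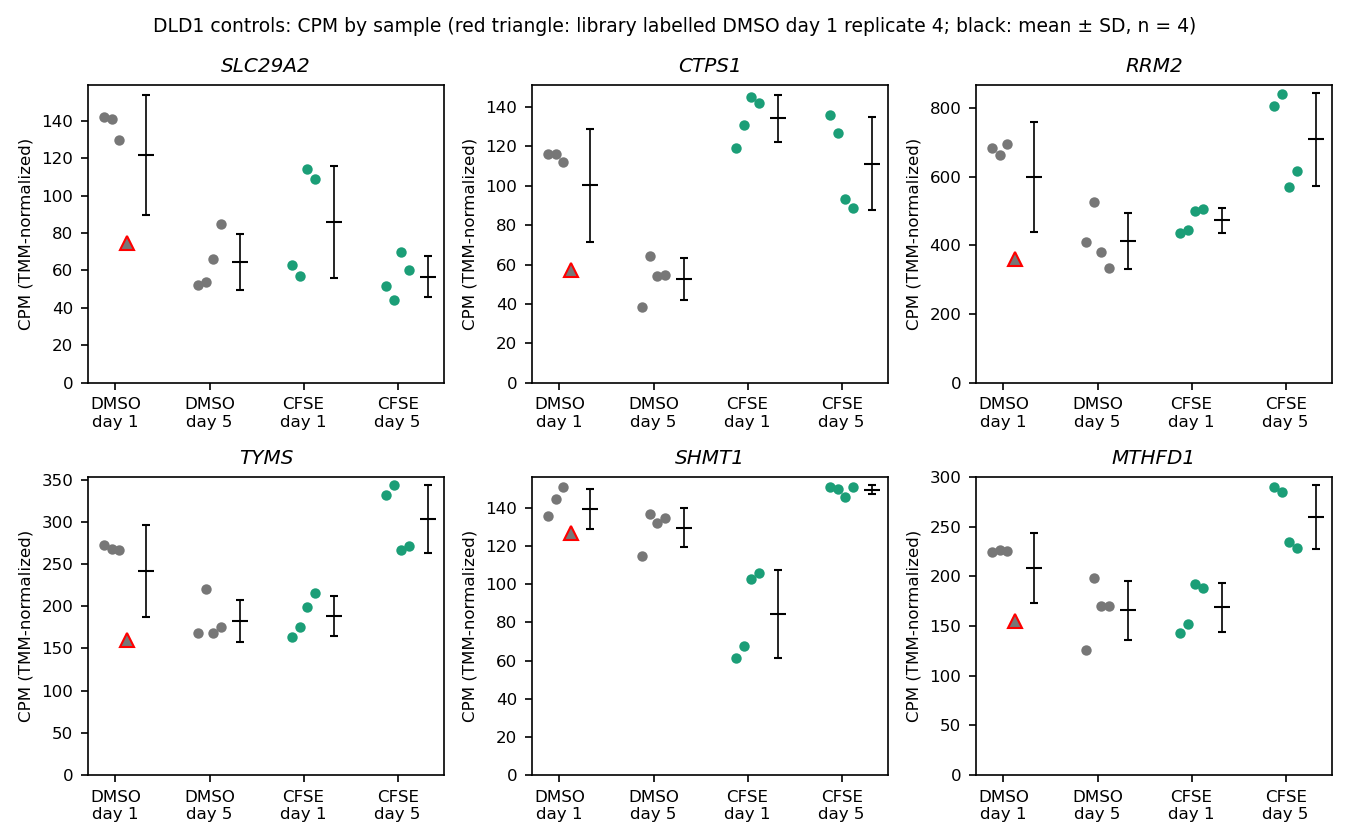
CPM in each DLD1 control sample for SLC29A2, CTPS1, RRM2, TYMS, SHMT1 and MTHFD1, by vehicle or dye and day. Dots are samples, black marks the mean ± SD (n = 4), and the red triangle is the library labelled DMSO day 1 replicate 4, which lies below the other DMSO day 1 samples in all 6 panels.

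On day 1, 5 members differed between CFSE and DMSO controls, against 21.8% of all genes tested, so members were called no more often than genes at large. PPAT was higher with CFSE (0.46, adjusted p = 0.0453), and SHMT1 (-0.73, adjusted p = 0.00411), APRT (-0.54, adjusted p = 0.0154), TK2 (-0.46, adjusted p = 0.0193) and SAMHD1 (-0.36, adjusted p = 0.0282) were lower. Without the library that went against its label 10 were lower and 0 higher, of 18% of all genes that differed. On day 5, 8 members were higher with CFSE and 0 lower, against 5.13% of all genes that differed in either direction. Leaving out 1 replicate at a time gave 0 to 11 members on day 1 and 0 to 15 on day 5. CTPS1 was 136, 127, 93.5 and 88.5 CPM with CFSE and 38.5, 64.3, 54.1 and 54.6 CPM with DMSO (log2 fold change 1.07, SE 0.21, adjusted p = 0.0169). NME1, RRM2, RRM1, PRPS1, TYMS, MTHFD1 and GART were the others, with log2 fold changes of 0.61 to 0.87. Without that library the count was 15, all higher, against 7.09% of genes that were higher. In the same comparison on day 5 the S-phase list had 17 of 21 higher with a median of 0.8, or 20 of 21 with a median of 0.81 without that library, and the part of this in the members' values was not tested.

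The day effect itself differed between CFSE and DMSO controls for 3 members, against 0.999% of all genes. These were TYMS (difference of log2 fold changes 1.09, SE 0.23, adjusted p = 0.0356), SHMT1 (0.93, SE 0.21, adjusted p = 0.043) and MTHFD1 (0.95, SE 0.22, adjusted p = 0.0491). Without the library that went against its label there were 11, against 4.45% of genes that were higher, and RRM2 then had a difference of 1.35 (SE 0.22, adjusted p = 0.00275). TYMS was 273, 268, 266 and 160 CPM on day 1 and 168, 220, 168 and 175 CPM on day 5 with DMSO, and 164, 175, 199 and 216 CPM on day 1 and 332, 344, 266 and 271 CPM on day 5 with CFSE. The count of 3 was lost without replicate 1, 2 or 3.

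The sorted DLD1 samples and the unsorted DLD1 controls were normalized separately, so their levels were set side by side without a test. Of 34 members, 8 were lower in all 8 sorted samples than in all 16 controls, 2 were higher in all of them and 24 overlapped. The share of all genes that separated in this way is not given, so these counts are not a result about the members. RRM2 was between 335 and 840 CPM in the controls and between 72.3 and 166 CPM in sorted DLD1. PRPS1 was 39.1 to 93.5 CPM in the controls and 11.5 to 18.3 CPM in sorted DLD1. The other lower members were PAICS, TYMS, DTYMK, DCTPP1, SAMHD1 and DCK. The higher ones were IMPDH2, with 147 to 234 CPM against 384 to 529 CPM, and NT5E, with 20.4 to 138 CPM against 202 to 464 CPM. The members given with values were chosen after those were seen.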

How the data were processed

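RNAseq of 64 samples (48 sorted, 16 controls) was analyzed from tables of raw counts per gene that the authors deposited, made from 50-bp single-end reads with TopHat and HTSeq on hg19 per the submitters' processing notes, which also name DESeq. Versions, the annotation and the strand setting are not given in the sources used here. Rows that name no gene were left out, and 5.19% to 14.8% of reads were assigned to no feature. Groups came from the labels. After a filter that kept genes reaching 10 counts in 4 or more samples, edgeR 4.0.16 (TMM normalization, quasi-likelihood test, R 4.3.3) was run, with Benjamini-Hochberg adjustment over all genes tested and a threshold of 0.05. SE is the log2 fold change divided by the root of F. Each line was fitted on its own 8 samples, and the control comparisons on all 16. The fit across lines used the 48 sorted samples. DESeq2 1.42.0, other scalings and filters, a replicate block and omission of replicates, lines and 1 control library were alternatives, the last chosen after seeing the data. The test was checked on simulated counts. Same-numbered samples deviated together, with every pair's correlation over 0.1, in HT55, SW48, DLD1, HCT15 and the CFSE day comparison. Gene lengths and positions came from GENCODE v44 on GRCh37, and promoter windows from RefSeq on GRCh38.p14. The members, the gene lists and the rule for named genes were chosen with earlier results of these data known, and members outside that rule, such as NT5E, TYMS and IMPDH2, were singled out after their values were seen.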

Additional observations from a re-analysis of the deposited data

Results flagged for a closer look

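Values in this section are CPM. The screen for samples that stand apart covered only members under the rule for named genes. Members outside that rule, such as NT5E, TYMS and IMPDH2, were not screened. Of 336 groups of 4 samples, 27 held a sample whose gap to the others exceeded Dixon's 95% critical value, where chance gives about 1 in 20 groups. The library labelled DMSO day 1 replicate 4 stood apart for CTPS1 (57.2, others 112 to 116), DUT (46.3, others 77.6 to 79.6), MTHFD1 (155, others 225 to 227), PAICS (379, others 495 to 512) and RRM2 (360, others 662 to 694). In SW48, replicate 2 stood apart among non-LRCs for TK1 (110), DUT (52.9), DTYMK (38.4) and PRPS1 (36.7), and among LRCs for RRM2 (152), DTYMK (21) and DCK (19.9). In RKO non-LRCs the flagged samples were RRM2 in replicate 1 (344), SLC29A2 in replicate 2 (43.5) and TK1 in replicate 3 (51.7). In HT55 they were CTPS1 in non-LRC replicate 2 (61.2), DHODH in LRC replicate 2 (13.3) and DCTPP1 in LRC replicate 3 (68.1). In SW948 LRCs they were CTPS1 in replicate 4 (59.7) and PRPS2 in replicate 3 (57.4). In DLD1 they were CTPS1 in non-LRC replicate 3 (61.9), DCK in LRC replicate 2 (18.1) and TK2 in LRC replicate 4 (21.1). In HCT15 they were PAICS in non-LRC replicate 2 (360) and ADSL in LRC replicate 3 (41.1). Among DMSO day 5 controls they were NME1 in replicate 2 (56.6) and DHODH in replicate 4 (6.22).

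The LRC effect differed between lines by edgeR's interaction test for PRPS1 (adjusted p = 0.00155), PAICS (0.00443), DUT (0.00571), TK2 (0.0207), DTYMK (0.0241), GMPS (0.0253), NME1 (0.026), DCK (0.0301), MTHFD1 (0.045) and APRT (0.0487). The day effect in CFSE minus that in DMSO was 1.09 for TYMS, 0.93 for SHMT1 and 0.95 for MTHFD1 on the log2 scale, each past the same threshold.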

How the results depend on the processing

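Across lines the count of 23 was 21 to 26 under other scalings, filters, DESeq2 and the replicate block (26), 17 to 23 when a replicate was left out, 15 without RKO and 0 at a log2 fold change of at least 0.5. IMPDH2 turned to 0 without SW948 and NT5E to -0.03 without RKO, neither past the threshold. With the replicate block the counts were 3 in SW948 (3.66% of all genes), 8 in SW48 (9.69%), 10 in HCT15 (21.3%), 31 in DLD1 (33.8%), 28 in RKO (37.2%) and 25 for the difference between lines (33.6%). In SW948 and RKO the numbers did not pair the samples. With all 48 samples in one fit the counts were 2 in SW948, 2 in SW48, 12 in DLD1 and 3 in HCT15. DESeq2 gave 1 in SW948, 3 in HCT15, 8 for the dye on day 1 and 10 for the day by dye difference. Without a filter there were 4 in SW948, 3 in HCT15 and 9 for day by dye. Without TMM there were 0 in HCT15 and 1 for day by dye, which was also 1 with RLE size factors and 1 with at least 10 counts in every sample. The DMSO day comparison gave 2 on its own 8 samples. Without the library labelled DMSO day 1 replicate 4 the counts were 15 (DMSO day), 10 (dye, day 1), 15 (dye, day 5) and 11 (day by dye). Leaving out 1 replicate at a time gave 0 to 4 in SW948, 0 to 1 in SW48, 13 to 19 in DLD1, 0 in HCT15, 26 to 28 in RKO, 0 to 14 for the difference between lines, 0 to 15 for the DMSO day, 4 to 20 for the CFSE day, 0 to 11 for the dye on day 1, 0 to 15 on day 5 and 0 to 11 for day by dye. The cause of these shifts was not tested. Where no share of all genes stands beside a count, the count shows only how far the result moved. With 4 replicates a group, the control calls and those in HCT15 are the least secure.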
